A study of Mus musculus with 2 samples.

Results

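The genes described here encode the machinery of peroxisomes and the enzymes that burn fatty acids. They number 34 of the 22180 genes that the array names through a single symbol, and were taken from a list with 14 peroxisomal enzymes and transporters, 11 peroxins and 9 enzymes of mitochondrial beta-oxidation. The list was drawn up with results of the same arrays in view, Acaa1a and Cat among them, so the differences below are descriptions and carry no test. M210B4 is an established mouse bone marrow stromal line. One culture was treated for 24 h with an antibody that activates CD84, a self-binding surface receptor of the SLAM family, and the other for the same time with an IgG1 isotype control. Both were kept at 37 °C and 5% CO2 in RPMI medium with 2% serum, which the labels call starving, so low serum is shared by both groups. A single Affymetrix Mouse Gene 2.0 ST array was run per culture (2 in all, 1 in each group), and no difference has a replicate check, a standard error or a p-value.

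Peroxisomes are membrane-bound organelles that shorten very long and branched fatty acids, make the first intermediates of ether lipids and break down hydrogen peroxide. Their matrix enzymes are made in the cytosol and imported through peroxins, which read short targeting signals on the cargo. The shortened chains leave for mitochondria, where carnitine-dependent import and a separate set of enzymes complete beta-oxidation. Many genes of both pathways are known targets of the PPAR nuclear receptors in liver and fat.

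The arrays had median log2 values of 4.87 (anti-CD84) and 4.88 (IgG1) over 41345 probe sets, and a detection level of 4.84 was taken from olfactory and vomeronasal receptor genes. Of the 13284 genes above it on at least 1 array, the median difference, anti-CD84 minus IgG1 on the log2 scale, was 0.09 and the standard deviation 0.44. Of 11 marrow stromal markers 8 were detected, with a median difference of 0.25. Col1a1 was at 12.52 after anti-CD84 and 12.53 after IgG1, while Cxcl12 was 2.15-fold and Pdgfra 1.89-fold higher after anti-CD84. The stromal label rests on the collagens, Pdgfra, Pdgfrb, Cxcl12 and Vcam1, as Lepr, Eng and Nt5e were below the detection level on both arrays. Thy1 was above that level after IgG1 alone (4.39 after anti-CD84 and 4.95 after IgG1). Adipoq, which defines adipocytes, stayed under it (3.68 after anti-CD84 and 3.70 after IgG1). Of 5 adipocyte markers, Plin1 and Fabp4 lay above it after IgG1 alone. The linear signals of the 5 summed to 95.3 after anti-CD84 and 103 after IgG1. Of 3 endothelial markers Pecam1 and Cdh5 were detected, after IgG1 alone, and the 3 summed to 63.8 after anti-CD84 and 106 after IgG1. Detected markers of other cell types numbered 2 of 5 for macrophages, 1 of 3 for T cells and 0 of 2 for B cells, none of them above 6.21. The part of these marker differences, or of other cells, in the results was not tested. In a culture measured in bulk, fewer cells of a kind and less RNA per cell cannot be told apart.

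All 34 members were detected, 32 of them on both arrays. After anti-CD84, 4 members were higher than after IgG1 by 1.5-fold or more (Hadhb, Decr2, Cat and Pex7), 2 were lower by as much (Acaa1a and Ehhadh) and 28 lay within 1.5-fold. Over all detected genes 10.7% were higher and 6.4% lower by that fold, so the members' counts were near the background in both directions. With each difference centred on the median of all detected genes, those shares were 7.71% and 8.49%, and the same 6 members stayed past 1.5-fold. Over the 34 members the median difference was 0.16, or 0.07 above that of all detected genes. At 2-fold, 2 members (Decr2 and Hadhb) were higher and 1 (Acaa1a) was lower, where the shares of all detected genes were 1.98% and 1.43%. In all, 23 members had a difference above 0, against 59.1% of detected genes. Of the 6 past 1.5-fold, Ehhadh and Hadhb were below the detection level on one array, and folds counted from that level were under 1.5 for both.

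**Figure D1:**
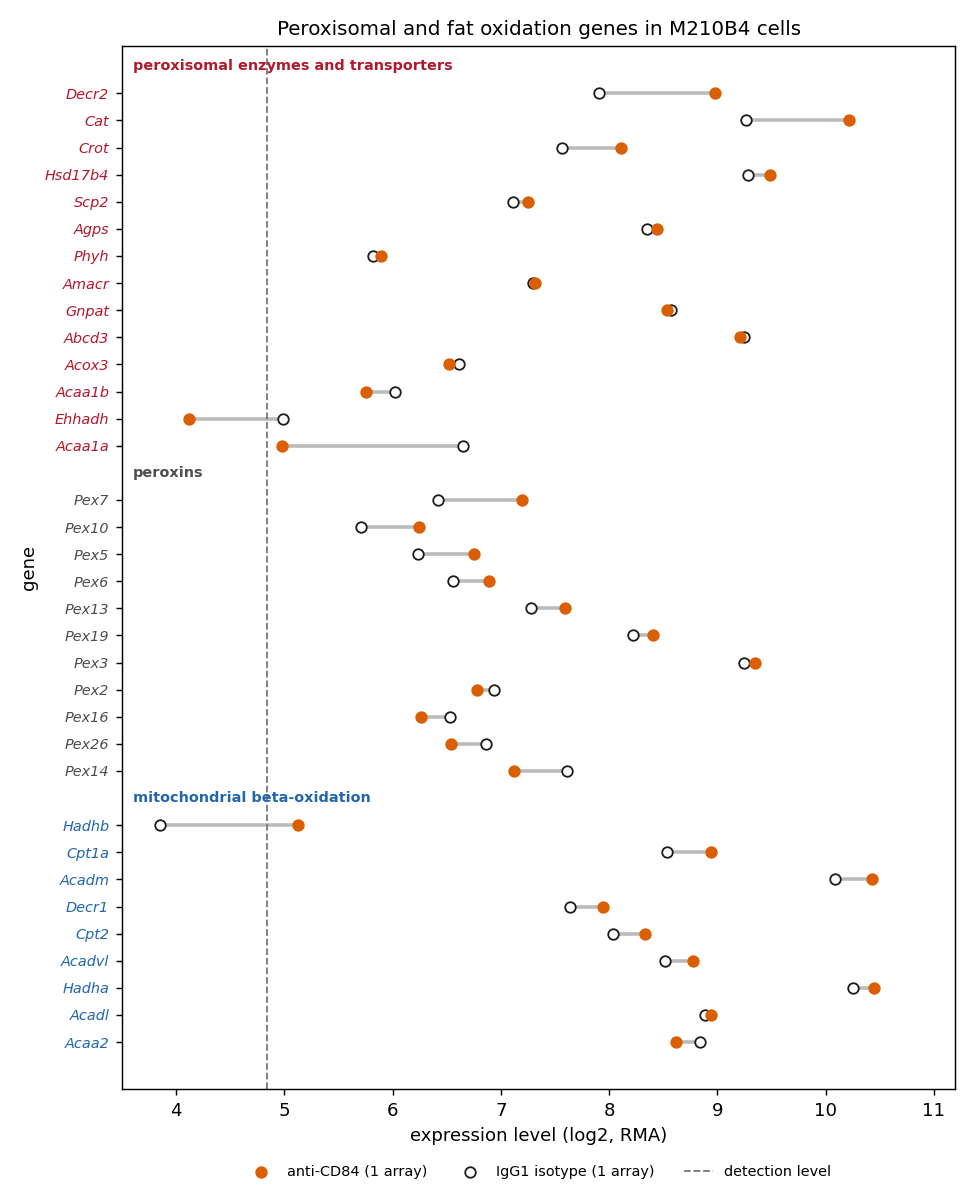
Log2 expression levels (x axis) of the 34 genes (y axis), grouped by role and ordered within a role by the difference. Filled points are the anti-CD84 array, open points the IgG1 array, and the dashed line is the detection level of 4.84. Acaa1a has the widest gap to the left and, among genes above the line on both arrays, Decr2 the widest to the right.

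**Figure D2:**
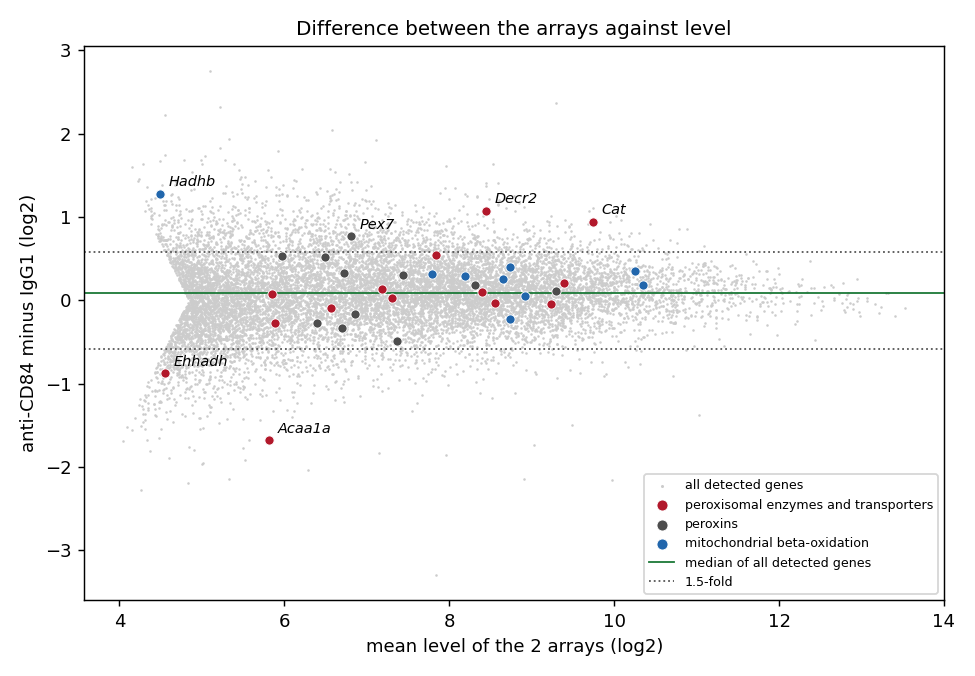
Difference between the arrays (y axis, anti-CD84 minus IgG1, log2) against the mean level of the 2 arrays (x axis, log2) for all 13284 detected genes (grey) and the 34 members (coloured by role). The dotted lines mark 1.5-fold and the green line the median of 0.09. Of the members, 6 lie past the dotted lines, and Cat and Decr2 stand at levels where the grey points are narrowly spread.

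The stretches directly upstream of the transcription start are shown for members past 1.5-fold. Decr2 and Acaa1a are not shown because their windows lie inside the span that RefSeq gives to the gene itself. Each runs 5′ to 3′ over 250 bases before the start, from RefSeq (GRCm38.p6). Capitals mark the nuclear receptor half-site AGGTCA, the GC box GGGCGG and the CCAAT box on either strand, motifs that do not overlap in these windows.
Cat, chr2:103485154-103485403, minus strand: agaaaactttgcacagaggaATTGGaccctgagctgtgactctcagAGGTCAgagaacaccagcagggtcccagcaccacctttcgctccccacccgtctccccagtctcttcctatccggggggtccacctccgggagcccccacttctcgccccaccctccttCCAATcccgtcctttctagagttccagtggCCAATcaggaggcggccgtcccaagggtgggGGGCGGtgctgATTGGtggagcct
Pex7, chr10:19907675-19907924, minus strand: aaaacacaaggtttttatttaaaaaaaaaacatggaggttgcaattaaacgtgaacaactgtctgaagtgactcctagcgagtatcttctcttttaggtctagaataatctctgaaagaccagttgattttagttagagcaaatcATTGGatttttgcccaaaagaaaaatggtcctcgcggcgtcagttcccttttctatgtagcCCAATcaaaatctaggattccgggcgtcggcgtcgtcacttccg
Hadhb (shared with Hadha on the opposite strand), chr5:30155003-30155252, plus strand: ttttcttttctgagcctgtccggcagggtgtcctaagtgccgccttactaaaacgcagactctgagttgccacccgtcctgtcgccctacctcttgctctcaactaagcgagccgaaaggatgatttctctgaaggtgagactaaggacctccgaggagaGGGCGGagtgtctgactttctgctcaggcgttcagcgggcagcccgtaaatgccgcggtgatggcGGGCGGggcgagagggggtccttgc
Ehhadh, chr16:21787835-21788084, minus strand: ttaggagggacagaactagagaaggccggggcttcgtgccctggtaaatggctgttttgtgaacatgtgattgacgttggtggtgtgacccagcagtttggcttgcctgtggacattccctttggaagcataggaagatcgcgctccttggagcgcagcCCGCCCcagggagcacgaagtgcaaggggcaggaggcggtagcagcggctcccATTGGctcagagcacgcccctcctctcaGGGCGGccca
Cat has 1 half-site, 1 GC box and 4 CCAAT boxes, and Pex7 has 2 CCAAT boxes and no GC box. The Hadhb window has 2 GC boxes. It lies in the 272 bases that separate Hadhb from Hadha, with no gene between them. The Ehhadh window has 2 GC boxes and 1 CCAAT box.

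A window was found for 28 members. The half-site AGGTCA stood in 5 of them (Scp2, Cat, Acadm, Acadvl and Cpt1a), or 17.9%, against 13.0% of 10325 detected genes and 15.8% of all 27025 genes with a window. GGGCGG stood in 71.4% of member windows, against 61.4% of those of detected genes and 35.4% of all. CCAAT stood in 35.7%, against 39.7% of detected genes and 37.5% of all. The direct repeat of the half-site with 1 base of any kind between the copies, the form that PPAR and RXR dimers are known to bind and which includes the single half-site, had 0 matches in member windows and was found in 0.0484% of detected genes. A match is only a run of letters, and elements farther away lie outside these windows.

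Among the peroxisomal enzymes the differences went both ways, with the thiolase Acaa1a lower and the reductase Decr2 and catalase higher. Acaa1a, a thiolase that catalyses the last step of the cycle, had a log2 level of 4.98 after anti-CD84 and 6.65 after IgG1. It was 3.19-fold lower, and of 11761 genes above the detection level on both arrays 8, itself included, were as far down. Of all 13284 detected genes, 21 were as far down, Acaa1a included. At mean levels under 7, where Acaa1a lies, 2.62% of 6534 detected genes were at least 2-fold lower. The standard deviation of the differences there was 0.52. The anti-CD84 value stands just above the detection level. Acaa1b, the second peroxisomal thiolase gene of the mouse, was at 5.75 after anti-CD84 and 6.02 after IgG1, a difference of -0.27. Acaa1a and Acaa1b are close paralogues on chromosome 9, with 4 protein-coding genes between them in the RefSeq table. Probes of such a pair can share signal, so how the difference divides between them is uncertain. Scp2, whose longer product is a thiolase for branched chains, was at 7.25 after anti-CD84 and 7.12 after IgG1.

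Upstream in the same cycle, Acox3, the oxidase for branched acyl-CoA, had 6.52 after anti-CD84 and 6.61 after IgG1. Of the bifunctional enzymes, Ehhadh, which hydrates and dehydrogenates through the L-hydroxy form, had 4.12 after anti-CD84, under the detection level, and 4.99 after IgG1. Counted from the detection level, Ehhadh was at least 1.11-fold lower. Hsd17b4, which uses the D-hydroxy form, was well above that level and went the other way, at 9.49 after anti-CD84 and 9.29 after IgG1. The cycle's genes thus had no common direction: Acaa1a was far lower, Hsd17b4 and Scp2 slightly higher, and Acox3 and Acaa1b slightly lower.

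Decr2, the reductase that lets polyunsaturated chains enter the cycle, was at 8.98 after anti-CD84 and 7.91 after IgG1. It was 2.11-fold higher, or just under 2-fold under 3 other scalings (0.99 on the log2 scale when centred), and 123 of the 11761 genes measured on both arrays, itself included, were as far up. Among 4542 detected genes with a mean level of 7 to 9, 1.21% were at least 2-fold higher. Cat, the enzyme that breaks down hydrogen peroxide from the oxidases, was at 10.21 after anti-CD84 and 9.27 after IgG1, a 1.93-fold difference. At mean levels of 9 or more, 4.76% of 2208 detected genes were at least 1.5-fold higher, and the standard deviation of the differences there was 0.30. Crot, which loads medium chains onto carnitine for export to mitochondria, stood just short of 1.5-fold, at 8.11 after anti-CD84 and 7.57 after IgG1 (1.46-fold higher).

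The remaining peroxisomal enzymes and transporters lay close together on the arrays. Abcd3, the PMP70 transporter that brings acyl-CoA into the organelle, was at 9.21 after anti-CD84 and 9.25 after IgG1. Amacr, the racemase that prepares branched chains for oxidation, was at 7.32 after anti-CD84 and 7.29 after IgG1. Phyh, the hydroxylase of phytanic acid alpha-oxidation, had 5.89 after anti-CD84 and 5.82 after IgG1. Gnpat and Agps catalyse the first steps of ether lipid synthesis. Gnpat was at 8.54 after anti-CD84 and 8.57 after IgG1, and Agps at 8.45 after anti-CD84 and 8.35 after IgG1. Differences of these 5 genes ran from -0.04 to 0.10, below the standard deviation of 0.44 over all detected genes. Signs of Amacr, Phyh and Agps changed under at least 1 of 3 other scalings.

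Of the peroxins the import receptor Pex7 had the largest difference, upward. Pex7 is the receptor for the amino-terminal signal carried by Acaa1a, Acaa1b, Phyh and Agps. Pex7 was at 7.19 after anti-CD84 and 6.42 after IgG1, or 1.71-fold higher. Pex5, the receptor for the carboxy-terminal signal and a partner of Pex7 in mammals, was at 6.75 after anti-CD84 and 6.23 after IgG1, 1.43-fold higher. Both receptors were thus higher on the anti-CD84 array. Of the cargo of Pex7, Acaa1a was lower, Acaa1b differed by -0.27, and Phyh and Agps by 0.07 and 0.10. At mean levels under 7, where both receptors lie, 13.4% of 6534 detected genes were at least 1.5-fold higher.

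The docking and recycling peroxins split in direction. Of the docking proteins, Pex14 was at 7.12 after anti-CD84 and 7.61 after IgG1, 1.41-fold lower, and its partner Pex13 at 7.59 after anti-CD84 and 7.28 after IgG1, 1.24-fold higher. Pex14 passed 1.5-fold lower under 2 other scalings. Pex10 and Pex2 are RING-finger subunits of the ligase that marks Pex5 for recycling. Pex10 was at 6.24 after anti-CD84 and 5.71 after IgG1 (1.45-fold higher), and Pex2 at 6.78 after anti-CD84 and 6.94 after IgG1. Pex6, an ATPase that extracts the receptor, was at 6.89 after anti-CD84 and 6.56 after IgG1, whereas Pex26, its membrane anchor, was at 6.54 after anti-CD84 and 6.87 after IgG1. In each of these 3 pairs one partner was higher and the other lower, but none of these genes reached 1.5-fold in the reported values. Apart from Pex14 (-0.49) and Pex10 (0.53), their differences were smaller than the standard deviation of 0.44 over all detected genes.

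The peroxins that insert membrane proteins all lay within 1.5-fold. Pex3 was at 9.35 after anti-CD84 and 9.24 after IgG1, with a sign that changed under loess but not under centring or quantile scaling, and Pex19, the chaperone of peroxisomal membrane proteins that docks on it, at 8.40 after anti-CD84 and 8.22 after IgG1. Pex16, which recruits Pex3, was at 6.26 after anti-CD84 and 6.53 after IgG1. Over the 11 peroxins 1 was past 1.5-fold upwards and 0 downwards, 7 were above 0, and the median difference was 0.18. Over all detected genes 10.7% were past 1.5-fold upwards, 6.4% downwards, and 59.1% lay above 0.

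Mitochondrial beta-oxidation genes lay on one side of 0 more often, by small amounts. Of 9 genes 8 had a difference above 0, where 59.1% of all detected genes did, and 7 lay above the median of all detected genes. The median of the 9 was 0.30, or 0.21 above that of all detected genes. The 8 include Hadhb, which was below the detection level after IgG1. The other genes of this group lie at mean levels of 7 to 9 or of 9 or more, where the median differences of detected genes were 0.12 and 0.10. At the carnitine step, Cpt1a, the outer-membrane acyltransferase that limits entry, was at 8.94 after anti-CD84 and 8.54 after IgG1, 1.32-fold higher. Cpt2, which returns the chain to coenzyme A inside, was at 8.33 after anti-CD84 and 8.04 after IgG1. Acadm, the medium-chain dehydrogenase, had 10.43 after anti-CD84 and 10.08 after IgG1, and Acadvl, the very-long-chain one, 8.77 after anti-CD84 and 8.52 after IgG1. Acadl, the long-chain dehydrogenase, was at 8.94 after anti-CD84 and 8.89 after IgG1, and its sign changed under other scalings. Decr1, the mitochondrial dienoyl-CoA reductase, was at 7.95 after anti-CD84 and 7.63 after IgG1. Apart from Hadhb none of these genes reached 1.5-fold.

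Hadha and Hadhb encode the alpha and beta subunits of the trifunctional protein, which catalyses the last 3 steps on long chains. Hadha was at 10.45 after anti-CD84 and 10.26 after IgG1, 1.14-fold higher. Hadhb had 5.13 after anti-CD84 and 3.85 after IgG1, where the IgG1 value is under the detection level. Counted from there, Hadhb was at least 1.22-fold higher. It has 1 probe set, far dimmer than that of Hadha on both arrays, and how well that probe set reads the transcript was not tested. Among detected genes with a mean level under 7, 13.4% were at least 1.5-fold higher. Acaa2, the mitochondrial thiolase for shorter chains, was the only one of the 9 below 0, at 8.62 after anti-CD84 and 8.84 after IgG1.

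Enzymes of like reactions were set side by side in pairs. The peroxisomal gene was farther from 0 for the dienoyl-CoA reductases, the paired thiolases and the carnitine acyltransferases. It was nearer to 0 for the first oxidation step. Decr2 had a difference of 1.08 and Decr1 of 0.31, which leaves 0.76 between them. Acaa1a (-1.67) and Acaa1b (-0.27) shared a negative sign with Acaa2 (-0.22). The differences of Acaa1b and Acaa2 were smaller than the standard deviation of 0.44 over all detected genes. Other genes of this step lay above 0. Scp2, also a thiolase gene, had 0.14. Hadhb of the trifunctional protein, which catalyses the last step too, had 0.29 with values floored at the detection level. Hsd17b4 (0.20) and Hadha (0.19) had nearly the same difference. Ehhadh, below the detection level after anti-CD84, had a difference of -0.15 with values floored at that level, and its distance from Hadha was not measured. Acox3 (-0.09) and Acadvl (0.25), the oxidase and the dehydrogenase of the first step, had opposite signs. Crot (0.54) lay above Cpt1a (0.40) and Cpt2 (0.30), all 3 on the positive side. Without replicates these contrasts could not be tested.

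**Figure D3:**
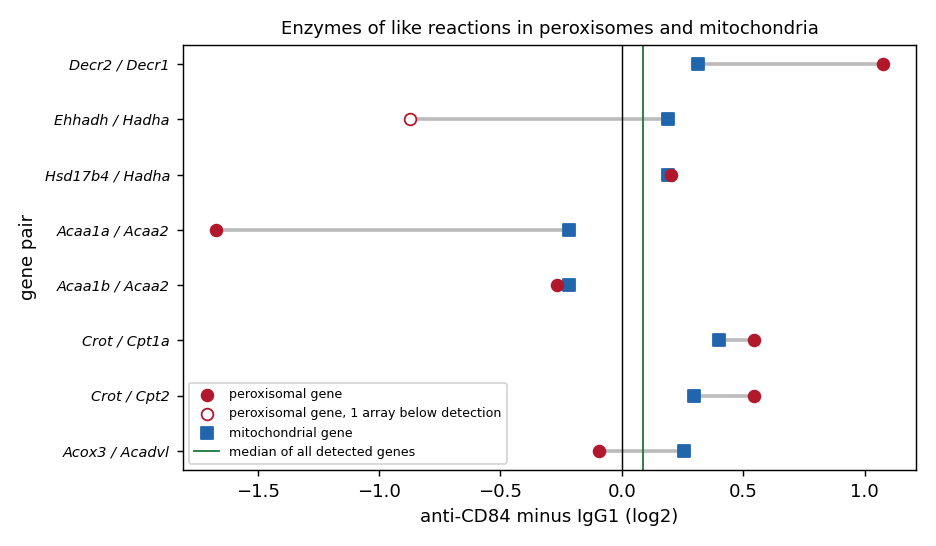
Differences (x axis, anti-CD84 minus IgG1, log2) of 8 pairs of genes (y axis) whose enzymes carry out like reactions in peroxisomes (circles) and mitochondria (squares), with the median of all detected genes in green. The open circle is Ehhadh, drawn at its measured difference although its anti-CD84 value is below the detection level. Among pairs above that level on both arrays, Acaa1a and Decr2 lie farthest from their mitochondrial counterparts.

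Over all detected genes 10.7% were higher and 6.4% lower by 1.5-fold, and the counts for wider lists of the same organelles stand beside these shares. Of 55 other peroxisomal genes 47 had a named probe set and 33 were detected. Past 1.5-fold, 5 of these were higher and 0 lower, with a median of 0.21. Nudt12, a peroxisomal NADH-cleaving hydrolase, was at 6.46 after anti-CD84 and 5.60 after IgG1 (1.81-fold higher). Crat, the carnitine acetyltransferase, was at 8.27 after anti-CD84 and 7.43 after IgG1 (1.79-fold higher), but its dimmer probe set differed by 0.01. Hacl1, the lyase that follows Phyh in alpha-oxidation, was at 6.56 after anti-CD84 and 5.82 after IgG1 (1.67-fold higher). Abcd2, a transporter of very long chains, was at least 1.23-fold higher and the thioesterase Acot6 at least 1.29-fold, both below the detection level after IgG1, so 3 of the 5 passed 1.5-fold when counted from that level.

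Of 30 other genes of mitochondrial fatty acid oxidation 24 were detected, 4 at least 1.5-fold higher and 1 lower (10.7% and 6.4% of all detected genes), with a median of 0.19. The thioesterase Acot2 was at 11.32 after anti-CD84 and 10.46 after IgG1 (1.81-fold higher). Acad9, a dehydrogenase also needed to assemble complex I, was at 7.08 after anti-CD84 and 6.27 after IgG1 (1.75-fold higher). The short-chain dehydrogenase Acads was 1.57-fold and the carnitine-acylcarnitine carrier Slc25a20 1.56-fold higher. The thioesterase Acot9 was 1.65-fold lower, at 6.32 after anti-CD84 and 7.05 after IgG1.

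Of 16 detected PPAR receptors, coactivators and related regulators 15 lay within 1.5-fold. Over all detected genes 10.7% were higher and 6.4% lower by at least that fold. Ppara, the receptor that drives these genes in liver, did not reach the detection level (4.15 after anti-CD84 and 4.28 after IgG1), nor did the coactivator Ppargc1a (3.76 after anti-CD84 and 3.59 after IgG1). Pparg was at 7.81 after anti-CD84 and 8.06 after IgG1, and Ppard at 7.67 after anti-CD84 and 7.45 after IgG1. The 1 past it was Prkaa2, a catalytic subunit of the energy sensor AMPK, at 6.91 after anti-CD84 and 5.92 after IgG1, a difference of 0.996. Of 14 detected genes in a list of PPAR targets, 1 was at least 1.5-fold higher (Slc25a20, also counted above) and 2 lower, with a median of -0.01. The shares of all detected genes were again 10.7% and 6.4%. The lower PPAR targets were G0s2, an inhibitor of fat lipase (1.55-fold, -0.16 in its dimmer probe set), and the lipid droplet gene Plin5 (at least 1.32-fold). Pdk4, a PPAR target in many tissues, was at 9.33 after anti-CD84 and 9.40 after IgG1.

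Against lists of neighbouring pathways, the mitochondrial beta-oxidation genes had a median difference of 0.30. The 74 detected subunits of the respiratory chain and ATP synthase, chosen by symbol, had one of -0.01, with 5 at least 1.5-fold higher and 5 lower. The 16 detected cholesterol synthesis genes had a median of 0.37, with 5 higher and 0 lower. The shares of all detected genes were 10.7% and 6.4%. These gaps were not tested, as each group has 1 array.

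**Figure D4:**
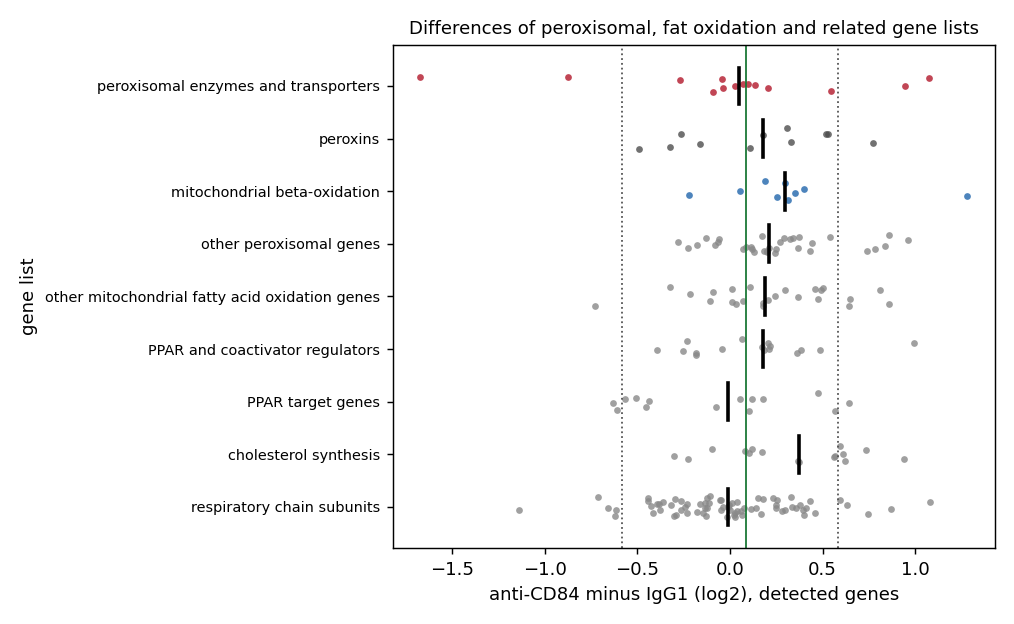
Differences (x axis, anti-CD84 minus IgG1, log2) of the detected genes of each list (y axis). Points are genes, black bars the list's median, the green line the median of all detected genes and dotted lines 1.5-fold. Medians run from -0.01 for PPAR targets and respiratory chain subunits to 0.37 for cholesterol synthesis, and the peroxisomal enzymes have the widest range of the 3 member groups, from -1.67 to 1.08.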

How the data were processed

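RNA of 2 cultures was labelled with biotin, 200 ng each from 200000 treated cells, and hybridised to 1 array per group, per the labels' protocols. The deposited table holds log2 expression values, made by the authors with RMA and Partek per the submitters' processing notes. Tool versions and the arrays normalized together are likewise unknown here. That the scale is log2 was read from the range of values (1.82 to 13.8). Names came from the platform's gene table at GEO. Of 41345 probe sets, 23521 have 1 symbol and 1814 several, and those with several were not used for gene results. All 34 members were found, their gene IDs matched RefSeq (GRCm38.p6), and 33 have 1 probe set. The brightest probe set stood for a gene.

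Values of 1394 receptor genes set the detection level at their 95th percentile. Genes exceeding it on 1 array or both count as detected. Where 1 array falls short of it, the fold is a lower figure ("at least") from that level. Array summaries of dim genes tend to be compressed, so their folds may be understated. Differences of dim genes also spread more widely, so a large fold of a dim gene may be overstated. Their standard deviation was 0.52 at mean levels under 7 and 0.30 at 9 or more. The number of arrays limits the precision, and no test was possible.

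All members were named. Of the wider lists, genes past 1.5-fold were named, and the receptors Pparg, Ppard, Ppara, the coactivator Ppargc1a and Pdk4 were named after their values were seen. The members and lists were chosen with earlier results of these data known. Alternatives were 3 scalings (median centring, loess with limma 3.58.1 and span 0.4, quantile), 3 other filters, the mean of probe sets, and values floored at the detection level. Counting was checked on simulated data. Software was R 4.3.3 and Python 3.11.15 with pandas 2.3.3, numpy 2.4.6 and matplotlib 3.10.9.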

Additional observations from a re-analysis of the deposited data

How the results depend on the processing

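The count of members at least 1.5-fold higher stayed at 3 or 4 under all 8 alternatives. The count at least 1.5-fold lower was 1 with genes required on both arrays, 1 with values floored and 0 at the stricter level of 6.88, where 24 members were tested. It was 3 under loess and quantile scaling, which added Pex14. At least 2-fold higher, 1 member in place of 2 remained under centring, loess, quantile scaling, flooring, the stricter level and the filter on both arrays. At least 2-fold lower, 0 remained at the stricter level. The filters and the floor act on Ehhadh, Hadhb and Acaa1a, which lie near or below these levels on an array. Under the 3 scalings the member lost was Decr2, at 0.99 when centred.

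The median of the peroxisomal enzymes, 0.05, turned to -0.037 when centred, -0.062 under loess and -0.045 under quantile scaling, so it has no settled sign. It was 0.071 with genes required on both arrays, 0.063 with probe sets averaged and 0.14 at the stricter level. The median of the peroxins, 0.18, was 0.095 centred, 0.060 under loess and 0.096 under quantile scaling. For mitochondrial beta-oxidation, 0.30 became 0.21 centred, 0.18 under loess, 0.21 under quantile scaling, 0.29 floored, and 0.28 both at the stricter level and with genes required on both arrays, all above 0. The signs of 29 members held under the 3 scalings, and those of Phyh, Amacr, Agps, Pex3 and Acadl changed under at least 1. With values floored, Ehhadh had -0.15 and Hadhb 0.29. Over all detected genes, 1427 were at least 1.5-fold higher and 850 lower. The counts were 1024 and 1128 centred, 1120 and 978 under loess, 1089 and 1030 under quantile scaling, 1216 and 548 floored, 742 and 219 at the stricter level, and 1799 and 1575 with no level filter. No paired analysis was possible because each group has 1 array. For the same reason no array could be left out.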

Other observations

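A pair of member genes have further probe sets. The second probe set of Phyh was at 4.79 after anti-CD84 and 4.26 after IgG1, below the detection level on both arrays, and it was used above only where probe sets were averaged. A probe set that the annotation assigns to both Acox3 and 4931431C16Rik was at 4.78 after anti-CD84 and 4.94 after IgG1, and cannot be given to either gene.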
